A study of Mus musculus with 4 samples.

Results

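Keratin genes were described in cultured mouse liver progenitor-like cells of hepatocyte origin (HepLPC, n = 2 libraries) and of non-parenchymal origin (NPC_LPC, n = 2 libraries). The members were all rows whose symbol is Krt followed by a number and at most 1 letter, with the keratin-associated protein genes left out. This gave 53 of the 21878 gene rows, 28 of type I and 25 of type II. The mice were C57BL/6, labelled 6 to 8 weeks old, and both groups were grown in transition and expansion media. The protocol lists tdTomato mice given AAV8-TBG-Cre for the hepatocytes, a virus whose Cre is driven by a hepatocyte promoter, and AlbCreERT/R26GFP mice for the non-parenchymal cells, in which Cre is driven by the albumin gene. If the mice were used as listed, line, virus and origin cannot be told apart. The cell type label of HepLPC mentions hepatocytes and non-parenchymal cells, so the groups follow the library titles. The labels do not state whether the replicates of a group were separate cultures or animals, and p-values therefore measure only the spread between these libraries. Paired values are given with replicate 1 first.

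Keratins are the intermediate filament proteins of epithelial cells. Each filament is built from pairs of an acidic type I and a basic type II protein, so a cell needs genes of both types. Mature hepatocytes use Krt8 and Krt18, the simple-epithelium pair, while bile duct cells add Krt7 and Krt19, which are also used as markers of ductular reactions and of liver progenitor cells. In the mouse the type I genes lie in a cluster on chromosome 11 and the type II genes in a cluster on chromosome 15, with Krt18, a type I gene, at the edge of the type II cluster.

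Total counts ran from 17575998 to 20625957 per library, and 3 counts equalled 0.148 to 0.169 CPM, the count rescaled to a common library size. Biliary marker genes, Krt19 and Krt7 among them, summed to 4784 and 2232 CPM in the HepLPC libraries and 9524 and 4783 in NPC_LPC. Spp1 made up 3024 and 904 CPM of this in HepLPC and 8939 and 4200.4 in NPC_LPC, and Cldn7 had no more than 3 counts. Mesothelial markers summed to 518 and 997 CPM in HepLPC and 653 and 402 in NPC_LPC, nearly all Msln and Podxl. Wt1, Upk3b, Gpm6a and Lrrn4 had at most 5.1 CPM each in any library. Squamous markers summed to 1504 and 1129 against 993 and 474, nearly all Sprr1a, while Trp63, Dsg3, Dsc3 and Krt14 had at most 3 counts. Intestinal markers summed to 305 and 292 CPM in HepLPC and 89.1 and 40.5 in NPC_LPC, more of it Krt20 than any other gene. Cdx1 had 0 counts and Muc2 at most 6 in any library. Of the 7 intestinal markers 5 were tested, Krt20 among them, and all 5 had a fold change above 0, beside 49.8% of tested genes. EdgeR called 2 higher, Cdx2 and Cdhr5, beside 0.227% of tested genes. Cdhr5 had 0 counts in both NPC_LPC libraries and passed the filter only through HepLPC. Hepatocyte markers summed to 244 and 252 against 27.7 and 50.04 CPM, nearly all Hnf4a, with Cyp2e1 and Cyp3a11 at 0 counts. Mesenchymal, leukocyte and endothelial markers summed to at most 16.7, 80.4 and 7.0 CPM in any library. The part of these markers in the keratin values was not tested. In bulk libraries, fewer keratin-expressing cells and less keratin RNA per cell cannot be told apart.

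Of the 53 keratin genes, 28 had no count in any of the 4 libraries and 6 had at most 3 counts in any library. Another 5 had more counts but did not pass the filter on low counts, and 14 were tested. Library by library, 21 and 22 keratin genes had at least 1 count in HepLPC replicates 1 and 2, and 14 and 15 in those of NPC_LPC. Both groups therefore expressed the family narrowly, with 3 genes, Krt8, Krt18 and Krt19, making up most of the keratin RNA.

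All keratins together took 0.586% and 0.915% of the counts in HepLPC replicates 1 and 2 and 0.171% and 0.336% in NPC_LPC replicates 1 and 2. In FPKM, the deposited unit that corrects for transcript length, the family summed to 2709 and 4374 in HepLPC and 765 and 1503 in NPC_LPC. Both HepLPC libraries were above both NPC_LPC libraries, and the group means of 3541 ± 1177 and 1134 ± 522 (SD, n = 2) differed 3.12-fold. No test was run on this sum, since an exact permutation test of 2 against 2 cannot go below 0.33.

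Type I and type II genes were in similar balance in the 4 libraries. Type I genes summed to 1711 and 2463 FPKM in HepLPC replicates 1 and 2 and to 461 and 876 in those of NPC_LPC. Type II genes summed to 998 and 1911 FPKM in HepLPC and to 304 and 627 in NPC_LPC. The ratio of type I to type II was 1.72 and 1.29 in HepLPC and 1.52 and 1.40 in NPC_LPC, so the NPC_LPC values lay between those of HepLPC. The balance rested on Krt8 and Krt18. Without both genes, the remaining keratins gave a ratio of 11.99 and 5.48 in HepLPC and 34.0 and 11.1 in NPC_LPC. Krt19, of type I, far exceeded the type II genes Krt7 and Krt80 in each library. Krt20, also of type I, was below Krt7 in HepLPC replicate 2.

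**Figure D1:**
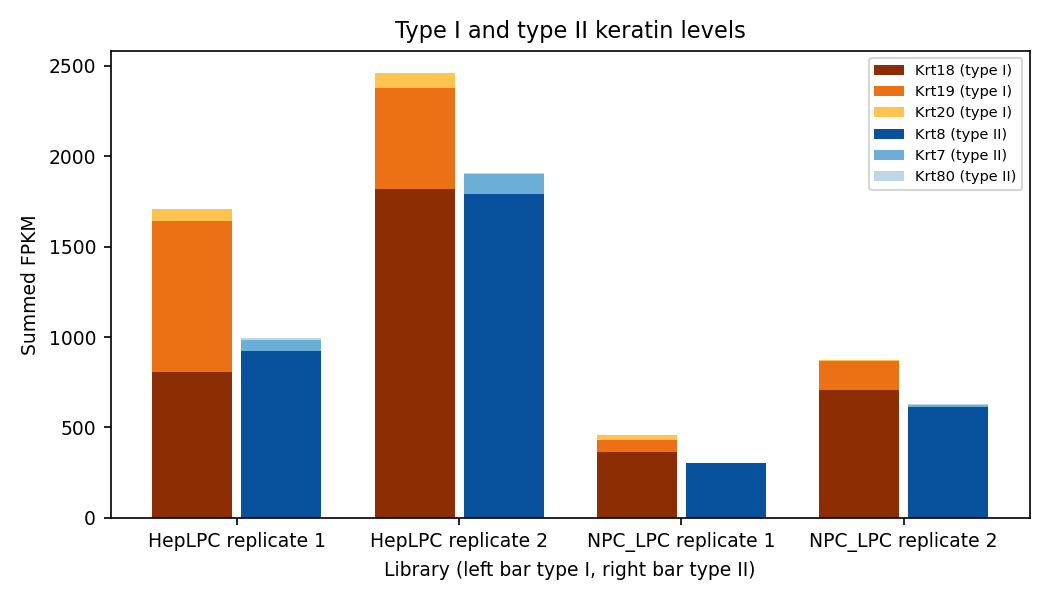
Summed FPKM (vertical axis, from 0) of the 6 most abundant keratins in each library (horizontal axis), with type I genes stacked in the left bar and type II genes in the right bar. The type I bar is higher in all 4 libraries, and Krt19 exceeds Krt18 only in HepLPC replicate 1, at 834 against 807 FPKM. All other keratins, left out of the bars, make up at most 0.33% of keratin FPKM in a library.

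Krt8 and Krt18 were the 2 most abundant keratins in 3 of the 4 libraries, and Krt19 stood between them in HepLPC replicate 1. Krt8, the type II partner (chromosome 15, 101996711 to 102004342, GRCm38), had CPM values of 2291 and 4028 in HepLPC and of 697 and 1509 in NPC_LPC. The HepLPC libraries were both above the NPC_LPC libraries, and the log2 fold change was 1.52 (SE 0.49, edgeR adjusted p = 0.168). Krt18, its type I partner (chromosome 15, 102028216 to 102032026), had CPM values of 1802 and 3718 in HepLPC and of 776 and 1567 in NPC_LPC. HepLPC replicate 1 and NPC_LPC replicate 2 were close. Replicates differed 2.06-fold in HepLPC and 2.02-fold in NPC_LPC, beside a 2.36-fold difference of the group means, and the log2 fold change was 1.24 (SE 0.51, edgeR adjusted p = 0.234). With 1 library left out at a time, the log2 fold change ran from 0.62 (without HepLPC replicate 2) to 1.83 (without NPC_LPC replicate 2) for Krt18, and from 1.05 to 2.18, without the same libraries, for Krt8.

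The partners kept nearly equal levels while their sum varied. The ratio of Krt8 to Krt18 in FPKM was 1.14 and 0.985 in HepLPC replicates 1 and 2 and 0.824 and 0.865 in those of NPC_LPC. Together they made up 63.8% and 82.6% of keratin FPKM in HepLPC and 87.2% and 87.8% in NPC_LPC. By FPKM, Krt18 ranked 40 and 10 among all genes of HepLPC replicates 1 and 2 and 93 and 46 among those of NPC_LPC.

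Krt19, the shortest keratin and a marker of bile duct cells, separated the groups more widely (chromosome 11, 100140810 to 100145926). The HepLPC libraries had 1434 and 885 CPM and the NPC_LPC libraries 111 and 275 CPM. The groups did not overlap, with means 6.02-fold apart and a log2 fold change of 2.59 (SE 0.52, edgeR adjusted p = 0.0841). Leaving out 1 library at a time gave values from 2.10 to 3.39. The edgeR adjusted p was 0.0484 without NPC_LPC replicate 2, 0.0766 without NPC_LPC replicate 1, and 0.237 and 0.206 without HepLPC replicate 1 or 2. In each such fit the group left with 1 library is assumed to vary like the other group. Within HepLPC its order was opposite to that of Krt8 and Krt18, which were both higher in replicate 2. The FPKM of Krt19 was accordingly 1.03 times that of Krt18 in HepLPC replicate 1 and 0.307 times in replicate 2, against 0.182 and 0.221 times in NPC_LPC. Krt19 made up 30.8% and 12.8% of keratin FPKM in HepLPC and 8.68% and 10.4% in NPC_LPC.

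Krt7, the type II keratin of ducts and glands that goes with Krt19 in bile duct cells, was the least even between replicates of NPC_LPC among the abundant members (chromosome 15, 101412403 to 101427806). It had 1857 and 2938 counts in HepLPC replicates 1 and 2 and 26 and 348 counts in those of NPC_LPC, which is 103 and 165.5 CPM against 1.43 and 17.2 CPM. The NPC_LPC libraries were 12.1-fold apart and both below HepLPC, with a log2 fold change of 3.84 (SE 1.06, edgeR adjusted p = 0.132). Without NPC_LPC replicate 1 the log2 fold change was 2.98 and without NPC_LPC replicate 2 it was 6.55. The edgeR adjusted p was then 0.0247 and 0.0159, in fits that no longer hold the difference between the NPC_LPC libraries, and it was 0.265 and 0.292 without HepLPC replicate 1 or 2. The ratio of Krt7 to Krt8 in FPKM was 0.069 and 0.062 in HepLPC and 0.0025 and 0.017 in NPC_LPC, so Krt7 remained a minor type II keratin in each library.

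Krt20, the type I keratin of intestinal epithelium, gastric surface cells and urothelium, was measured in all libraries (chromosome 11, 99428385 to 99438153). Its CPM was 196 and 227 in HepLPC and 83.3 and 30.4 in NPC_LPC. The HepLPC libraries were close to each other and above NPC_LPC, with a log2 fold change of 1.90 (SE 0.49, edgeR adjusted p = 0.119). Without NPC_LPC replicate 1, the higher of that group, the log2 fold change was 2.82 and the edgeR adjusted p 0.0174, with the spread taken from HepLPC alone. Without NPC_LPC replicate 2 the value was 1.34 (edgeR adjusted p = 0.171), and without HepLPC replicate 1 or 2 the adjusted p was 0.268 and 0.274. Unlike Krt8, Krt18, Krt19 and Krt7, whose values were higher in NPC_LPC replicate 2, Krt20 was higher in replicate 1.

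Krt80, a type II keratin of many epithelia (chromosome 15, 101348315 to 101370162), did not separate the groups. It had 40.9 and 19.0 CPM in HepLPC and 10.3 and 24.1 CPM in NPC_LPC, which overlap, and its log2 fold change was 0.80 (SE 0.56, edgeR adjusted p = 0.447). The value ran from 0.16 (without HepLPC replicate 1) to 1.54 (without NPC_LPC replicate 2) when each library was left out in turn. In FPKM the order of the abundant keratins was Krt8, Krt19, Krt18, Krt20, Krt7 and Krt80 in HepLPC replicate 1, and Krt18, Krt8, Krt19, Krt7, Krt20 and Krt80 in HepLPC replicate 2. In NPC_LPC replicate 1 it was Krt18, Krt8, Krt19, Krt20, Krt80 and Krt7. In NPC_LPC replicate 2 it was Krt18, Krt8, Krt19, Krt20, Krt7 and Krt80. Krt8 and Krt18 differed in each library by less than either gene differed between the replicates of a group. Krt7 and Krt20 were at 63.7 and 65.0 FPKM in HepLPC replicate 1 and at 111 and 81.6 in replicate 2, so their order changed between replicates.

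**Figure D2:**
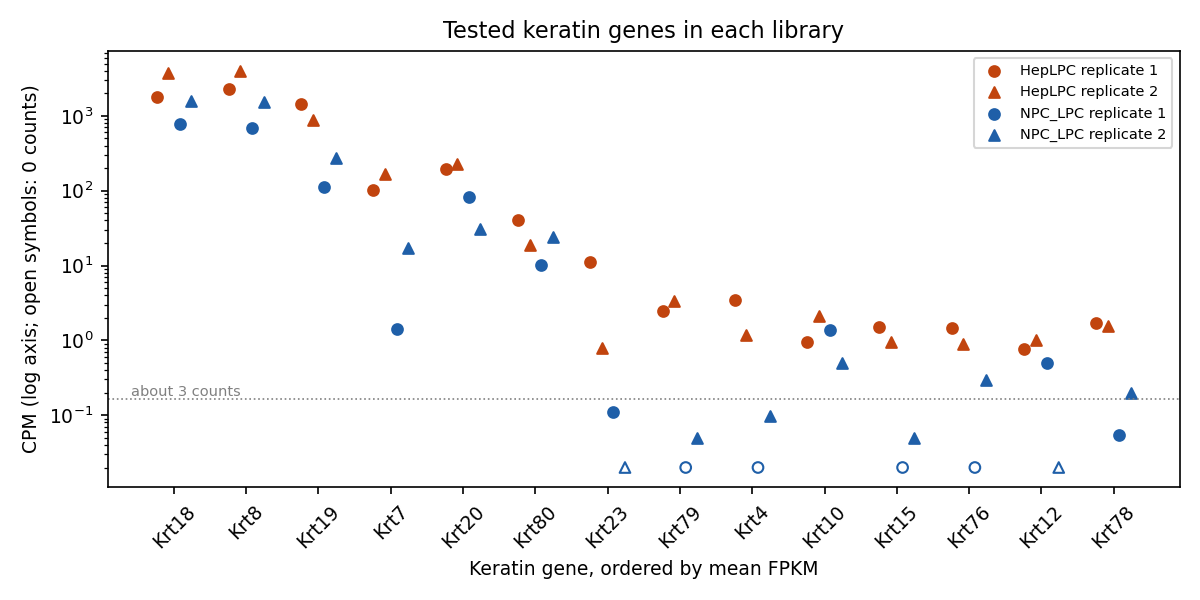
CPM on a log axis of the 14 tested keratins (horizontal axis, ordered by mean FPKM), 1 symbol for each library, open symbols at the bottom for 0 counts and a dotted line at about 3 counts. Krt8, Krt18, Krt19, Krt7 and Krt20 have both HepLPC symbols above both NPC_LPC symbols, Krt80 and Krt10 overlap, and the genes from Krt23 to Krt78 other than Krt10 have fewer than 10 counts in each NPC_LPC library.

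The start regions of Krt8, Krt18, Krt7 and Krt20 are shown because these abundant keratins had higher values in HepLPC together. Krt8, Krt18 and Krt7 lie in the cluster on chromosome 15 and Krt20 in that on chromosome 11. The regions come from RefSeq (GRCm38.p6), 250 bases before to 50 after the annotated start, 5′ to 3′ on the gene's strand. Of the 53 genes 36 had an entry, and Krt19 and Krt80 had none. Capitals mark TATAAA (the core promoter box of that name), GGGCGG (bound by SP and KLF factors) and CAGGTG (an E-box bound by SNAI and ZEB repressors) on either strand. Krt8 is chr15:102004293-102004592 (minus strand), Krt18 is chr15:102027966-102028265 (plus strand), Krt7 is chr15:101412153-101412452 (plus strand) and Krt20 is chr11:99438104-99438403 (minus strand).
Krt8: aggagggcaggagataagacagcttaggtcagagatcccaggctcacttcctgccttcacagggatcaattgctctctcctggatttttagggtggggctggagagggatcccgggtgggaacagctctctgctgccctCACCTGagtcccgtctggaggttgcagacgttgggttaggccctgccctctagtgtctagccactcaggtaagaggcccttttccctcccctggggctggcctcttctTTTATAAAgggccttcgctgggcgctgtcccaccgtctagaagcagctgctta
Krt18: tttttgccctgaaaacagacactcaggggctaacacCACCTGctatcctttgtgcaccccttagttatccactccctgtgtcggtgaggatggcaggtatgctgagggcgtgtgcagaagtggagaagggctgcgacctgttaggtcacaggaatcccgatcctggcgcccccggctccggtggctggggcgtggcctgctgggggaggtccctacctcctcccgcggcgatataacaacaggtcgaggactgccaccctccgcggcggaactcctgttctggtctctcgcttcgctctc
Krt7: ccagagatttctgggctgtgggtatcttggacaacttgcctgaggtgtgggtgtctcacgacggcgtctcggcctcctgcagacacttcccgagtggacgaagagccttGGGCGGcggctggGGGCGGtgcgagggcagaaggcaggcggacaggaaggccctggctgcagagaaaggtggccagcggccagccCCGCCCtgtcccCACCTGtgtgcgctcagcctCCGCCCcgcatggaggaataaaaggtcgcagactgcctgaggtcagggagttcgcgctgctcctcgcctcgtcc
Krt20: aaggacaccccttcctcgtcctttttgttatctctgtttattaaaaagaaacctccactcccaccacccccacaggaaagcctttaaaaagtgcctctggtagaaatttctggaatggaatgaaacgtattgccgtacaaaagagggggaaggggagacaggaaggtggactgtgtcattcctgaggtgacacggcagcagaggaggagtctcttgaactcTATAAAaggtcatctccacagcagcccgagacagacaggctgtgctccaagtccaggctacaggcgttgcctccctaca

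The 4 regions differed in their letters. Krt20 held TATAAA 29 bases before its start, Krt8 held it across its annotated start on both strands in overlapping matches, and Krt7 and Krt18 did not hold it. Krt7 held 4 copies of GGGCGG, and the other 3 genes held none. CAGGTG was present in Krt7, Krt8 and Krt18, on the strand opposite to the gene in each, and absent from Krt20. Over the 37 entries of the keratin family, TATAAA occurred in 51.4%, GGGCGG in 5.41% and CAGGTG in 40.5%, where 13.6%, 35.7% and 20.2% of all 32851 promoter entries of that length held them. The AP-1 motif TGANTCA, occurred in 5.41% of keratin entries and 7.81% of all, and in none of the 4 shown. These matches describe letters and do not show a site in use.

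No keratin gene passed the edgeR test over all genes. Of the 12332 genes tested, 0.227% were called higher in HepLPC, and of the 14 keratins 0 were, with adjusted p between 0.074 and 0.653. At an unadjusted p under 0.05 and higher in HepLPC there were 9 of the 14 keratins and 10.4% of all tested genes (21.9% in either direction). DESeq2 called 6 keratins higher, Krt8, Krt19, Krt20, Krt4, Krt23 and Krt79, where it called 5.81% of tested genes higher. Limma-voom called 0 keratins and 0.0162% of tested genes higher. With all genes of at least 1 count kept, edgeR called Krt19 and Krt79, beside 1.64% of genes tested. With an NPC_LPC arm of 1 library, it called Krt7 and Krt20 without NPC_LPC replicate 1, beside 1.22% of genes tested, and Krt7 and Krt19 without NPC_LPC replicate 2, beside 0.36%. Without either HepLPC library it called 0 keratins and 0 genes in all. With a replicate block it called 0 keratins and 0.397% of genes higher. The group ranges did not overlap, with HepLPC higher, for 12 of the 14 keratins and for 27.9% of tested genes. All 14 had a fold change above 0, as did 49.8% of tested genes. The 14 include 7 that had fewer than 10 counts in both NPC_LPC libraries and entered the test only through their HepLPC counts, so these counts over the tested keratins carry that choice.

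**Figure D3:**
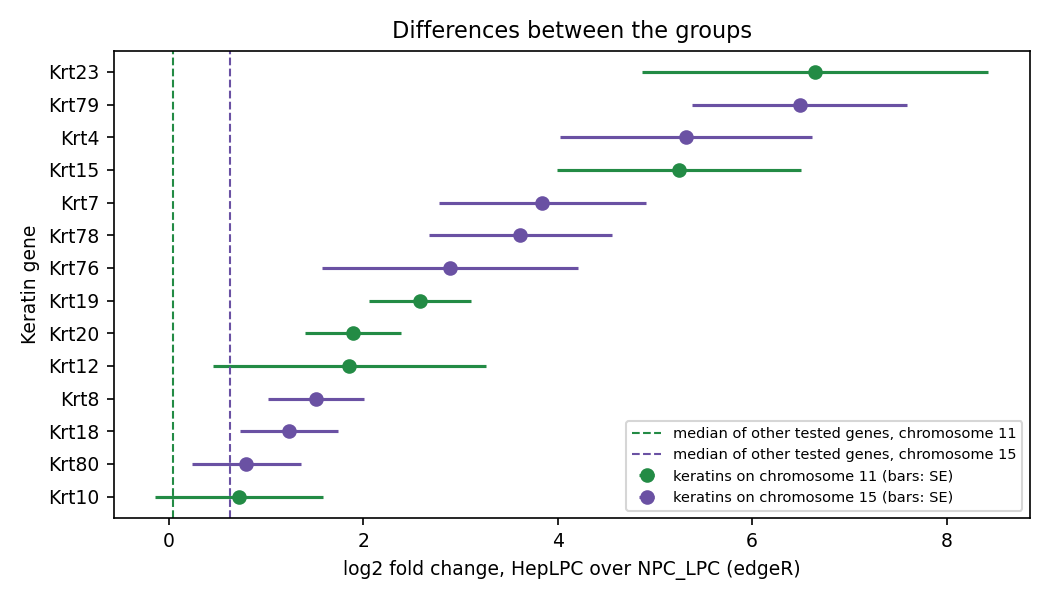
The edgeR log2 fold change of HepLPC over NPC_LPC (horizontal axis) with its standard error for the 14 tested keratins (vertical axis), coloured by chromosome, with dashed lines at the median of the other tested genes of chromosomes 11 and 15. The values run from 0.73 for Krt10 to 6.64 for Krt23. Among the keratins of chromosome 15, Krt80 and Krt18 lie closest to the line of that chromosome. The fitted values of genes with 0 counts in an NPC_LPC library, such as Krt23 and Krt79, depend on the prior count and are no bound.

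The type II cluster lies on a chromosome whose genes had higher values in HepLPC as a whole. The 485 other tested genes of chromosome 15 had a median log2 fold change of 0.63, the highest of the 20 chromosomes compared, and 79.8% were above 0. Within 1 Mb of the keratin cluster, 37 tested genes had a median of 0.57 and 0 were called. On chromosome 11 the median of 987 other tested genes was 0.04. The HepLPC over NPC_LPC medians of chromosome 15 were 0.49 in both comparisons with HepLPC replicate 1, and 0.79 and 0.68 in those with HepLPC replicate 2, each as a difference of log2 CPM between a pair of libraries. Relative to the median of their chromosome, the log2 fold change was 0.60 for Krt18, 0.885 for Krt8 and 0.17 for Krt80. It was 3.21 for Krt7, and on chromosome 11 it was 2.55 for Krt19 and 1.86 for Krt20. The part of the chromosome-wide difference in these keratins was not tested.

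Several further keratins had low counts that came almost wholly from HepLPC. Krt23, a simple-epithelium type I keratin (chromosome 11, 99477973 to 99493120), had 200 and 14 counts in HepLPC replicates 1 and 2 and 2 and 0 in those of NPC_LPC. HepLPC replicate 1 held most of it, at 11.1 CPM against 0.789 in replicate 2. Over the summed counts the ratio of rates was 115, with a 95% exact interval of 31.5 to 956 that covers counting error only (edgeR adjusted p = 0.125).

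Krt79, Krt4, Krt76 and Krt78, type II keratins of stratified epithelia or hair follicles, lie side by side next to Krt8. Krt79, found in the upper hair follicle and sebaceous gland duct, had 45 and 59 counts in HepLPC replicates 1 and 2 and 0 and 1 in those of NPC_LPC, a ratio of 112 (95% exact interval 19.6 to 4457, edgeR adjusted p = 0.074). Krt4, the type II keratin of oesophagus and other mucosal linings, had 62 and 21 counts against 0 and 2, a ratio of 44.6 (edgeR adjusted p = 0.11). Krt76, a keratin of oral epithelium, had 26 and 16 counts in HepLPC against 0 and 6. Krt79, Krt4 and Krt76 reached at most 1.43 FPKM in any library, where Krt8 was between 301 and 1793. Krt78 had 31 and 28 counts in HepLPC against 1 and 4, and its interval lies 86 bases from that of Krt8 in the RefSeq table. The part of neighbouring Krt8 transcription in these counts was not tested.

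On chromosome 11, Krt15, a type I keratin of basal cells, lies 4.86 kb from Krt19 and had 27 and 17 counts in HepLPC replicates 1 and 2 and 0 and 1 in those of NPC_LPC. The ratio was 47.3 (95% exact lower bound 8.06, edgeR adjusted p = 0.106). Krt12, the corneal type I keratin, had 14 and 18 counts against 9 and 0, and Krt10, a keratin of differentiating epidermis, 17 and 38 against 25 and 10. Krt10 overlapped between the groups, with a log2 fold change of 0.73 (SE 0.86), and Krt12 had one of 1.86 (SE 1.40).

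The basal and squamous keratins were at or near the floor. Krt5, the type II keratin of basal cells, had 33 counts in HepLPC replicate 1 and 2, 1 and 2 counts in the other libraries, and was not tested. Its usual partner Krt14 had 3 counts in HepLPC replicate 2 and 0 elsewhere, and Krt17 had 0 in all 4 libraries. Krt6a, a keratin of wounded and hyperproliferative epithelium, had 6 and 12 counts in HepLPC and 0 in NPC_LPC, at least 3.22-fold higher against a floor of 3 counts per library. Its near-identical copy Krt6b had 0 counts, and the split of reads between copies is uncertain. Krt222 had 6 and 9 counts against 0, at least 2.68-fold higher. Of the 20 keratins of stratified epithelia 7 had no count, and none exceeded 1.43 FPKM.

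Not every low keratin was higher in HepLPC. Krt39, a hair keratin, had 2 and 2 counts in HepLPC, 0 in NPC_LPC replicate 1 and 19 in NPC_LPC replicate 2. Krt13, a mucosal type I keratin and partner of Krt4, had 1 and 3 counts in HepLPC and 6 and 0 in NPC_LPC. Of the 23 keratins of hair fibres and hair follicle sheaths, 19 had no count and Krt39 was the only gene above 3 counts, chosen for mention after its values were seen.

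**Figure D4:**
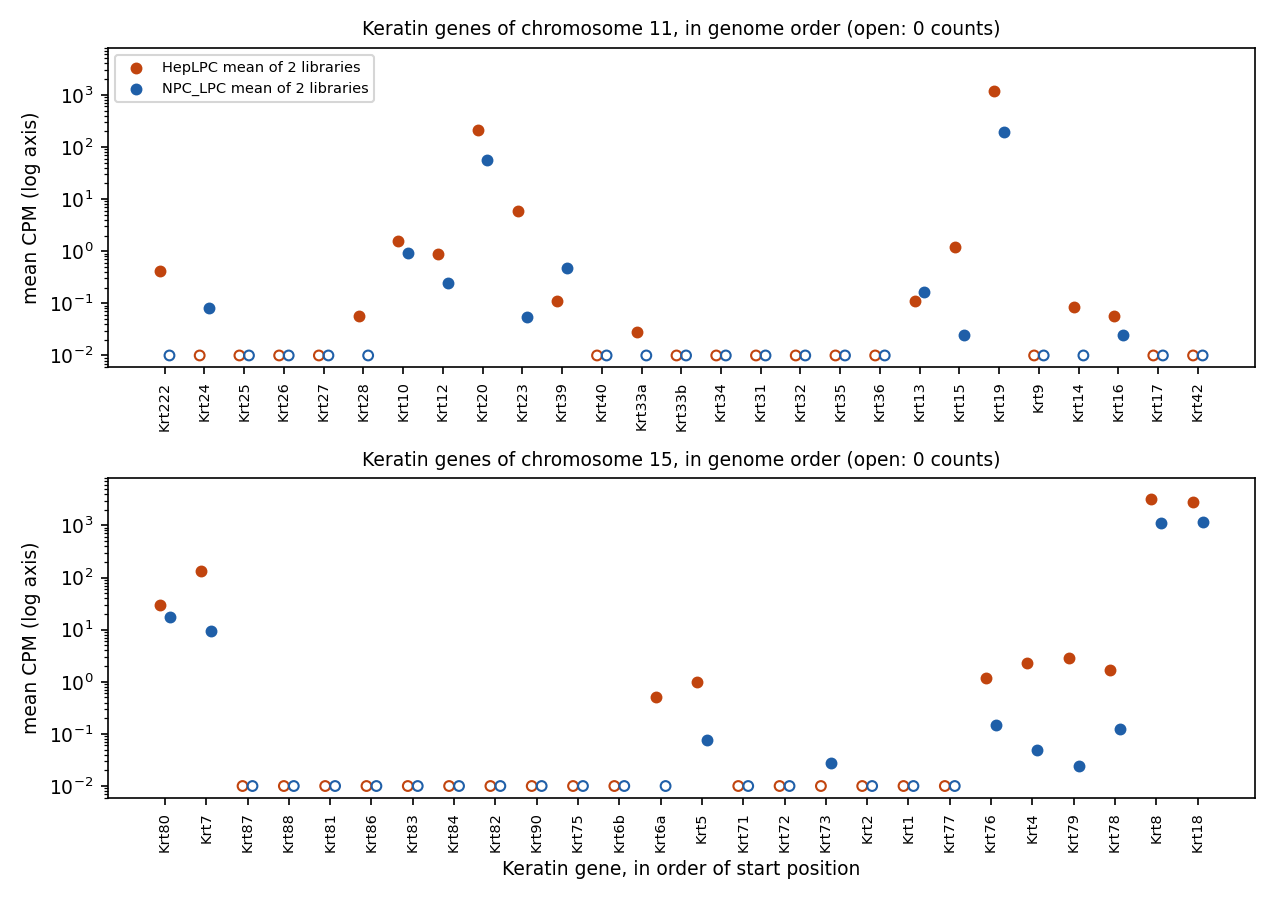
Mean CPM of each group (log axis, open symbols for 0 counts) for all keratins of chromosome 11 (upper panel) and chromosome 15 (lower panel), placed in order of their start position. On chromosome 15 the abundant genes stand at the edges, Krt80 and Krt7 at 1 end and Krt8 and Krt18 at the other, with mostly open symbols between them.

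The abundant keratins stood at the edges of the cluster on chromosome 15 and inside the cluster on chromosome 11. On chromosome 15, Krt80 and Krt7 were the first and second of 26 genes and Krt8 and Krt18 held places 25 and 26, with Krt18 starting 23.9 kb beyond Krt8. The genes in places 3 to 12 had 0 counts in all 4 libraries. On chromosome 11, Krt20 held place 9 and Krt19 place 22 of 27, and the genes in places 14 to 19, Krt33b to Krt36, had 0 counts. These places describe the 4 libraries and were not tested.

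No other intermediate filament gene passed the edgeR test, and the list was not tested as a set. Of 15 genes 11 were tested and 8 of these were above 0, beside 49.8% of all tested genes, with a median of 0.59 on the log2 scale, beside -0.0035 for all tested genes other than keratins. EdgeR called 0 in either direction, where it called 0.43% of all tested genes, and 2 had an unadjusted p under 0.05, beside 21.9% of all. Vim, the filament of mesenchymal and many cultured cells, had 1990.3 and 2160.5 CPM in HepLPC and 1519 and 1866 CPM in NPC_LPC, and its log2 fold change was 0.29 (SE 0.28, adjusted p = 0.564 in edgeR). In FPKM, Krt8 was between 0.41 and 1.64 times as high as Vim, and the ratio was below 1 in the NPC_LPC libraries and in HepLPC replicate 1. Lmna, which encodes lamins of the nuclear envelope, was at 468 and 728 CPM against 314 and 482. Nes, the filament gene nestin of progenitor and activated stellate cells, was at 81.4 and 50.02 CPM in HepLPC and 332 and 1327 CPM in NPC_LPC, opposite in direction to the keratins, with a log2 fold change of -3.66 (SE 0.72, edgeR adjusted p = 0.0828).

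None of the genes that tie keratin filaments to desmosomes and to other filaments passed the edgeR test. Of 19 genes 18 were tested and 12 were above 0 (49.8% of all tested genes), with a median of 0.47 on the log2 scale. EdgeR called 0 (0.43% of all), and 4 had an unadjusted p under 0.05 (21.9% of all). Perp, a desmosome-associated membrane protein, was at 204 and 321 CPM in HepLPC and 162 and 182 in NPC_LPC. Pnn was at 531 and 231 CPM against 252 and 263, and Ppl, the linker periplakin, at 422 and 350.5 against 420.4 and 293.

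Of 14 epithelial transcription factors linked to keratin expression, 9 were tested and 6 were above 0 (49.8% of all tested genes), with a median of 0.87 on the log2 scale. EdgeR called 1 higher (0.227% of all) and 0 lower, and 5 had an unadjusted p under 0.05 in either direction (21.9% of all). The gene called was Cdx2, an intestinal regulator, with 32.9 and 29.3 CPM in HepLPC and 3.35 and 4.41 CPM in NPC_LPC. Its log2 fold change was 3.0 (SE 0.35, edgeR adjusted p = 0.0466). Klf5, a regulator of proliferating epithelium, was at 130.0 and 110.0 CPM in HepLPC and 51.7 and 43.1 in NPC_LPC, and the groups did not overlap, at a log2 difference of 1.34 (SE 0.24, adjusted p = 0.0773 in edgeR). Sox9, a biliary factor, was at 109 and 115 CPM against 256 and 81.5, and the groups overlapped (adjusted p = 0.544 in edgeR). Trp63, the basal cell regulator, had 0 counts in 3 libraries and 2 in NPC_LPC replicate 2, beside the low Krt5 and Krt14.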

How the data were processed

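RNA from 4 libraries was measured by paired-end sequencing of a stranded messenger RNA library. The authors deposited a count and an FPKM value per gene symbol, per the file headers. The submitters' processing notes name HISAT2, HTSeq, Cufflinks, Trimmomatic and DESeq, and the build mm10. The sources used here do not give versions, annotation or strand setting. The tested keratins Krt7, Krt8, Krt10, Krt12, Krt76 and Krt80, and Krt5 and Krt6a among those not tested, overlap exons of opposite-strand genes in GENCODE M21. Reads from such exons could not be told apart if strand was ignored. Counts were tested across all genes in edgeR 4.0.16 by quasi-likelihood (R 4.3.3, TMM, filterByExpr, group only), adjusted by Benjamini-Hochberg over 12332 genes with a threshold of 0.05. Standard errors were derived from the F statistic, and the test was run on simulated data. That simulation gave every gene the same spread, so it does not show how the test behaves at the spread between these libraries. FPKM values, as the authors gave them, were summed or compared between genes. CPM used library totals times TMM factors of 0.98 to 1.02. Positions came from RefSeq (GRCm38). Keratins that passed the filter are named with values in each library, those above 3 counts that did not pass with their counts, and of the other lists the called genes and the 3 most abundant by FPKM; further genes were named after their values were seen. Members and lists were chosen with earlier results of these data known. Alternatives were other scaling, filters, DESeq2 1.42.0, limma 3.58.1 on counts and on log2 FPKM, a replicate block, leaving out each library, and a correction for the chromosome median. Intervals and floors cover counting error only.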

Additional observations from a re-analysis of the deposited data

How the results depend on the processing

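Of 196 alternative values for single keratins, 12 passed the threshold, none changed sign, and 3 differences (Krt8, Krt18 and Krt80) moved by more than their standard error once the median of their chromosome was taken off; the other 181 kept their direction and their side of the threshold, though their size could move by more. The number of keratins called higher in HepLPC was 0 of 14 with edgeR, beside 0.227% of genes tested, and 6 of 14 with DESeq2, beside 5.81%. It was 2 of 25 when all genes with at least 1 count were kept (Krt19 and Krt79), beside 1.64%. Krt79, and Krt4 and Krt23 among the DESeq2 calls, had fewer than 10 counts in both NPC_LPC libraries and passed the filter only through HepLPC. The number of all genes called was 53, and it was 593 with all genes of at least 1 count, 1517 with DESeq2, 5 with limma-voom, 114 with limma on log2(FPKM + 1) where mean FPKM was 1 or more, 0 for that fit on genes with any FPKM above 0, and between 0 and 377 when a library was left out. With the replicate number as a block edgeR called 136 genes, of which 0 were keratins; the numbers are not stated to pair the libraries, and the deviations of replicates numbered 1 had a correlation of -0.017 across genes. The log2 ratio of summed keratin FPKM, HepLPC over NPC_LPC, was 1.64, ran from 1.24 to 2.21 when a library was left out, and was 2.63 without Krt8 and Krt18. The mean ratio of type I to type II moved from 1.5 to 8.73 in HepLPC and from 1.46 to 22.5 in NPC_LPC without both genes, and was 1.29 in NPC_LPC in summed CPM. The causes were not tested. Depth limits the stratified and hair keratins, where a few counts decide a ratio.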
